A study of Homo sapiens with 12 samples.

Results

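The guanylate-binding proteins GBP1 to GBP5 were read through every probe set of the array whose annotation names one of these 5 genes and no other gene. This rule, which used no measured value, gave 11 of the 54675 probe sets: 4 for GBP1, 2 for GBP2, 1 for GBP3, 2 for GBP4 and 2 for GBP5. No probe set named a member together with another gene.

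Guanylate-binding proteins are large GTPases that interferons, above all interferon gamma, switch on in most human cells. Interferon gamma acts through JAK kinases on gamma-activated sequences, and through the factors IRF1 and IRF9 on interferon-stimulated response elements. The proteins assemble on the surface of bacteria, parasites and virus-containing membranes inside a cell, and they are widely used as a readout of interferon exposure in tumour cells.

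Each of 3 human cancer cell lines, PC-3 from prostate, HBC4 from breast and MKN74 from stomach, was given 4 treatments, with 1 Affymetrix array per line and treatment (12 arrays). AS1411, a guanine-rich DNA aptamer known to bind nucleolin, and the RNA (uuaggg)4, which carries the telomeric RNA repeat, both form G-quadruplexes (G4), structures of stacked guanine quartets. The RNA (uuaccc)4 and the lipofection reagent alone served as controls. All cells, controls included, were reverse transfected with Lipofectamine RNAiMAX at 300000 cells per well, with about 100 pmol of oligonucleotide per well where one was given, kept as 3D culture on a low-adhesion plate, and harvested after 72 h. A line is a single established culture, so the 3 lines stand for 3 tumours and not for tissues.

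The 5 genes lie side by side on chromosome 1 in RefSeq (GRCh38.p14), in the order GBP3 (89006680 to 89022866), GBP1 (89052319 to 89065208), GBP2 (89106132 to 89126114), GBP4 (89181144 to 89198942) and GBP5 (89256189 to 89272860). GBP7 lies between GBP2 and GBP4, and GBP6 beyond GBP5. The promoters of GBP1, GBP3 and GBP4 are shown because the cores of interferon response sequences were found there, and those of GBP2 and GBP5 were not analysed here. RefSeq windows of 300 bases (250 before the start and 50 after it) of GBP1, GBP3, GBP4, GBP6 and GBP7 were searched on both strands for the core of the interferon-stimulated response element (GAAA and GAAA with any 2 bases between them) and of the gamma-activated sequence (TTCNNNGAA). The response element core was found at -127 to -118 of the start in GBP1, at 3 to 12 in GBP3 and at -4 to 6 in GBP4, each time on the strand opposite to the gene. The gamma-activated core was found at -15 to -7 of GBP3, and the 2 matches of GBP3 do not overlap. Only this exact form was searched, so looser forms of the sequence in any of the windows, that of GBP1 included, would have been missed. Of 35116 RefSeq promoters of this length, 3.57% held the response element core and 7.66% the gamma-activated core. Neither was found in the windows of GBP6 and GBP7. The 94 bases around each response element core follow, 5′ to 3′ on the gene's minus strand, with the cores in capitals.
GBP1, chr1:89065322-89065415: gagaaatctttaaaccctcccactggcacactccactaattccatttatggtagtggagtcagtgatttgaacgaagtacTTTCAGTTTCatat
GBP3, chr1:89022851-89022944: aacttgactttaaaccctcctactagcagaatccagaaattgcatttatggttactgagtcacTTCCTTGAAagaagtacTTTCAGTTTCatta
GBP4, chr1:89198933-89199026: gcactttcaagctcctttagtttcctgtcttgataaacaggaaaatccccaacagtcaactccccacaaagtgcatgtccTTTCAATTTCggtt
The windows of GBP1 and GBP3, set together without gaps, had the same base at 70 of 94 positions (74.5%), against 27.7% for GBP1 and GBP4 and 30.9% for GBP3 and GBP4.

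The deposited values are log2 expression, centred so that each probe set has a median of 0 over the 12 arrays. A value of 2 therefore means 4 times a probe set's own median and says nothing of how strongly one gene was expressed next to another, or of whether a probe set was above background. Pearson's r between 2 arrays of a line was never below 0.856, and between 2 lines never above -0.171, which the centring lowers. Array medians lay between -0.0314 and 0.0257. Prostate markers were mixed in PC-3: HOXB13 stood 4.76 and 4.46 above its median on the line's arrays (mean of 4 arrays, 2 probe sets), but the probe sets of the prostate list were highest in PC-3 for 6 of 16, and in HBC4 for 6 as well. Breast markers were highest in HBC4 for 13 of 20 probe sets. Gastric markers were highest in MKN74 for 4 of 15, and these 4 ranged by only 0.16 to 0.35 between lines. The gastric trefoil factors TFF1 (8.15) and TFF2 (8.26) were highest in PC-3, so the label of MKN74 is not borne out by this list. The gastric values in PC-3 and the mixed prostate list leave the label of PC-3 unsettled too. In bulk RNA fewer cells that express a gene and less RNA per cell cannot be told apart. Across the 3 lines, no marker probe set of leukocytes (9), endothelium (9) or fibroblasts (20) passed the test for G4 oligonucleotides against controls. Of the prostate list 1 of 16 passed there, for ACP3, which was higher by 0.47. Within HBC4 1 probe set each of the fibroblast, breast and prostate lists passed, all lower. Each line is a single established culture, so these counts cannot show whether cell composition changed.

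GBP1, GBP2, GBP3, GBP4 and GBP5 all held at least 1 probe set that fell under the G4 oligonucleotides in PC-3 or HBC4. GBP1 moved most, by 6.26-fold in PC-3 and 3.56-fold in HBC4 for probe set 202270_at. In MKN74, where GBP1 and GBP2 stood far lower on the control arrays, only GBP3 passed the test, falling 1.62-fold. Tests within a line used limma on all 54613 probe sets that are not array controls, with Benjamini-Hochberg adjusted p under 0.05 as the threshold. AS1411 and (uuaggg)4 counted there as the 2 arrays of a G4 class, (uuaccc)4 and the reagent as the 2 arrays of a control class, and the spread was pooled over the 3 lines. No culture was repeated under the same treatment, so p-values measure the spread between treatments of a class.

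GBP1, the founding member, which hydrolyses GTP through GDP to GMP and coats bacteria that have reached the cytosol, had 3 probe sets with the same pattern. In PC-3, 202270_at read -0.52 with AS1411 and -0.43 with (uuaggg)4, against 2.05 with (uuaccc)4 and 2.29 with the reagent. In HBC4 it read 0.43 and 0.44 with these G4 oligonucleotides, against 2.38 and 2.15 with the controls in the same order. In MKN74 the 4 values were -3.77 and -3.63, against -3.57 and -3.33. The G4 arrays of PC-3 and HBC4 lay more than 1 log2 unit below their controls without overlap, while the 4 MKN74 arrays lay within 0.44 of each other and below every array of the other lines. The differences within PC-3 were -2.65 (SE 0.13) for 202270_at, -2.65 (SE 0.29) for 202269_x_at and -2.60 (SE 0.22) for 231577_s_at, with adjusted p of 3.18e-06, 6.06e-04 and 1.08e-04. Within HBC4 they were -1.83, -1.65 and -1.80 with the same errors, and adjusted p of 3.07e-05, 0.016 and 0.002. Within MKN74 they were -0.25 (95% interval -0.53 to 0.03), -0.25 (-0.88 to 0.38) and -0.08 (-0.58 to 0.41), none past the threshold. The fourth GBP1 probe set, 231578_at, stayed within -0.38 and 0.30 on all 12 arrays, in every line and treatment. It therefore disagreed in size with the others on both the response and the line difference, and the deposited values do not show which part of the transcript it reads.

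**Figure D1:**
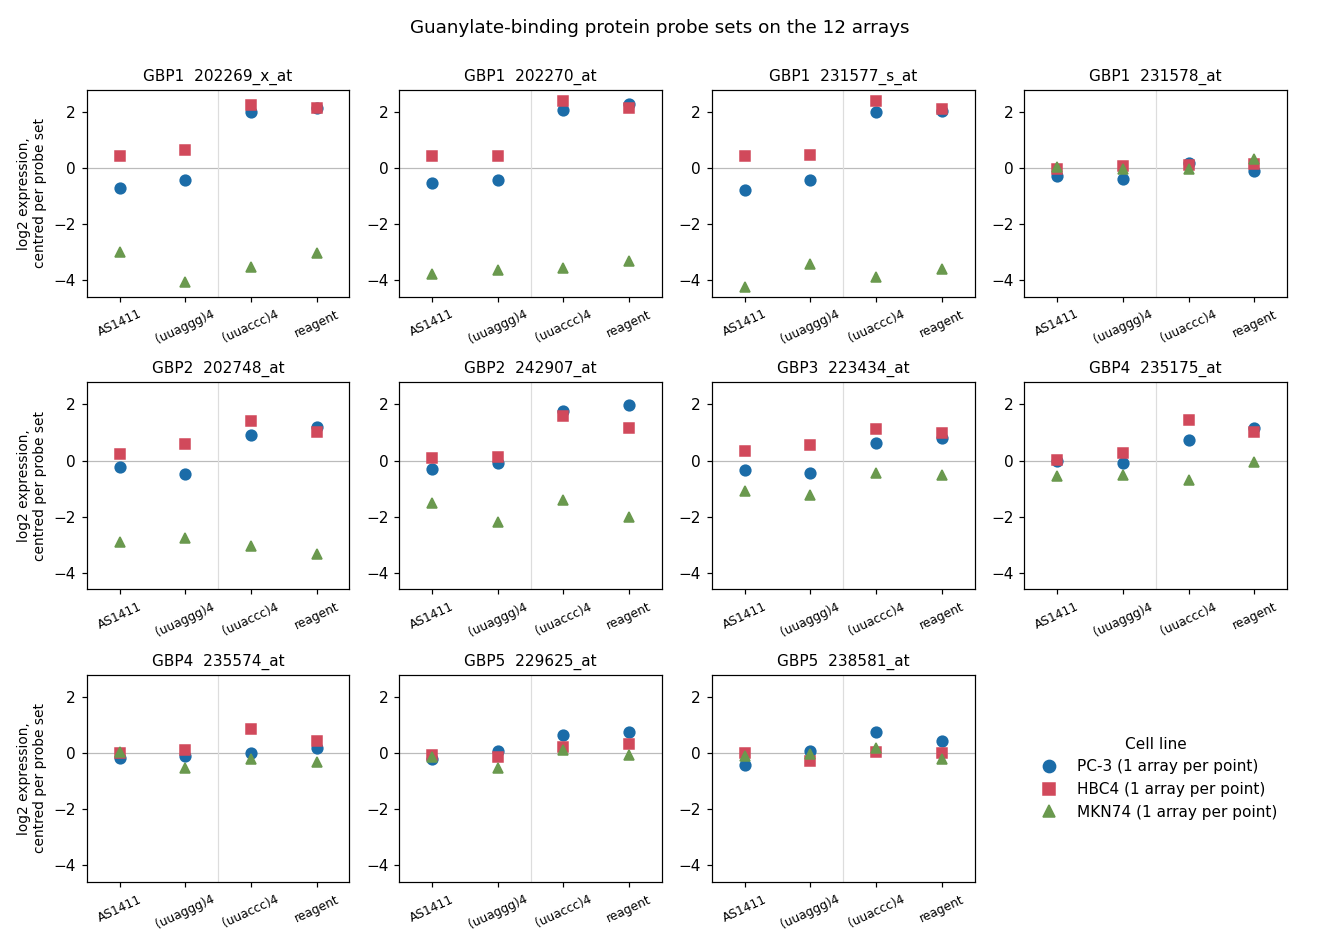
Values of the 11 probe sets on the 12 arrays (y axis: log2 expression, centred to a median of 0 per probe set; x axis: treatment; 1 point per array, marked by line). For 3 GBP1 probe sets the AS1411 and (uuaggg)4 points of PC-3 and HBC4 lie below their (uuaccc)4 and reagent points, the MKN74 points lie between -4.23 and -2.98, and GBP1 231578_at stays between -0.38 and 0.30.

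GBP2, a prenylated member that together with GBP5 is known to lower the activity of the protease furin, fell in the same lines as GBP1. Its probe set 202748_at read -0.24 and -0.49 in PC-3 with AS1411 and (uuaggg)4, against 0.91 and 1.18 with (uuaccc)4 and the reagent. In HBC4 it read 0.24 and 0.60, against 1.43 and 1.03. In MKN74 it read -2.93 and -2.77, against -3.07 and -3.33. The classes did not overlap in any line, and in MKN74 the G4 arrays were the higher ones. Of all probe sets, 21.8% in PC-3 and 19.9% in HBC4 had both G4 arrays below both controls, and 21.7% in MKN74 had them above. The difference was -1.41 (SE 0.18, adjusted p = 0.00189) in PC-3, -0.81 (adjusted p = 0.0494) in HBC4 and 0.35 (95% interval -0.04 to 0.74, adjusted p = 0.464) in MKN74. The HBC4 call was lost whenever any 1 array was left out, with adjusted p up to 0.316. The second probe set, 242907_at, differed by -2.07 (SE 0.24, adjusted p = 9.38e-04) in PC-3, -1.27 (adjusted p = 0.0246) in HBC4 and -0.14 (95% interval -0.66 to 0.38) in MKN74. Its HBC4 call, and that of GBP1 202269_x_at, was lost without any 1 of the 4 HBC4 arrays (adjusted p up to 0.173 and 0.159).

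GBP3, a member without the prenylation motif of GBP1, GBP2 and GBP5, was the one gene that passed the threshold in all 3 lines. Its single probe set, 223434_at, read -0.35 and -0.43 in PC-3 with AS1411 and (uuaggg)4, against 0.63 and 0.79 with (uuaccc)4 and the reagent. In HBC4 it read 0.35 and 0.55, against 1.12 and 0.97. In MKN74 it read -1.11 and -1.22, against -0.43 and -0.50. In each line both G4 arrays lay below both controls, and the gap between classes was wider than the spread within either class. The ordering alone was met by 21.8%, 19.9% and 20.2% of all probe sets in PC-3, HBC4 and MKN74. The differences were -1.10 (SE 0.11, adjusted p = 4.57e-04) in PC-3, -0.60 (adjusted p = 0.0284) in HBC4 and -0.70 (adjusted p = 0.018) in MKN74. The MKN74 call was lost without any 1 of the 4 MKN74 arrays (adjusted p up to 0.127) and after quantile normalization (-0.50, adjusted p = 0.156). The HBC4 call was lost without the HBC4 array of AS1411, (uuaccc)4 or the reagent (adjusted p up to 0.224).

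GBP4, which lacks a prenylation motif as well and joins the GBP coat on bacteria, fell in HBC4. Probe set 235175_at read 0.02 and 0.26 there with AS1411 and (uuaggg)4, against 1.45 and 1.01 with (uuaccc)4 and the reagent, a difference of -1.09 (SE 0.21, adjusted p = 0.0308). This call was lost without any 1 of the 4 HBC4 arrays (adjusted p up to 0.231). In PC-3 the values were -0.02 and -0.07, against 0.74 and 1.14, a difference of -0.99 that missed the threshold (95% interval -1.46 to -0.52, adjusted p = 0.0542). In MKN74 the classes overlapped, at -0.55 and -0.53, against -0.69 and -0.04. The second probe set, 235574_at, differed by -0.61 in HBC4, -0.24 in PC-3 and 0.02 in MKN74, none past the threshold.

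GBP5, a prenylated member that favours assembly of the NLRP3 inflammasome in mouse macrophages, fell in PC-3. Probe set 229625_at read -0.22 and 0.06 there with AS1411 and (uuaggg)4, against 0.64 and 0.76 with (uuaccc)4 and the reagent, a difference of -0.78 (SE 0.14, adjusted p = 0.0265). This call was lost without the PC-3 array of AS1411, (uuaccc)4 or the reagent (adjusted p up to 0.213). In HBC4 it read -0.06 and -0.13, against 0.21 and 0.31, and in MKN74 -0.15 and -0.53, against 0.13 and -0.06. The classes did not overlap in any line, but the differences of -0.36 in HBC4 and -0.37 in MKN74 did not pass. Both G4 arrays lay below both controls for 21.8%, 19.9% and 20.2% of all probe sets in PC-3, HBC4 and MKN74. The other probe set, 238581_at, differed by -0.76 in PC-3 (adjusted p = 0.087), and by -0.15 and -0.05 in HBC4 and MKN74.

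Counted by line, 7 of the 11 probe sets passed in PC-3, all lower, where 1.21% of all 54613 probe sets passed and 0.798% were lower. In HBC4 7 passed, all lower, against 1.55% of all probe sets in either direction and 0.981% lower. In MKN74 1 passed, lower, against 0.831% and 0.652%. The median difference of the 11 probe sets was -1.10 for PC-3, -0.81 for HBC4 and -0.14 for MKN74, beside 0.02, 0.02 and 0.01 over all probe sets. Both G4 arrays lay below both controls for 11 of 11 probe sets in PC-3, 10 of 11 in HBC4 and 3 of 11 in MKN74, where 1 lay above. That ordering was met by 21.8%, 19.9% and 20.2% of all probe sets in these lines, and the opposite one by 21.7% in MKN74, so the MKN74 count is near the background. Without any 1 of the 4 HBC4 arrays 2 or 3 probe sets passed in HBC4, and without any 1 of the 4 MKN74 arrays, or after quantile normalization, 0 passed in MKN74. The HBC4 calls of GBP1 202270_at and 231577_s_at were kept in all 12 fits without 1 array.

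**Figure D2:**
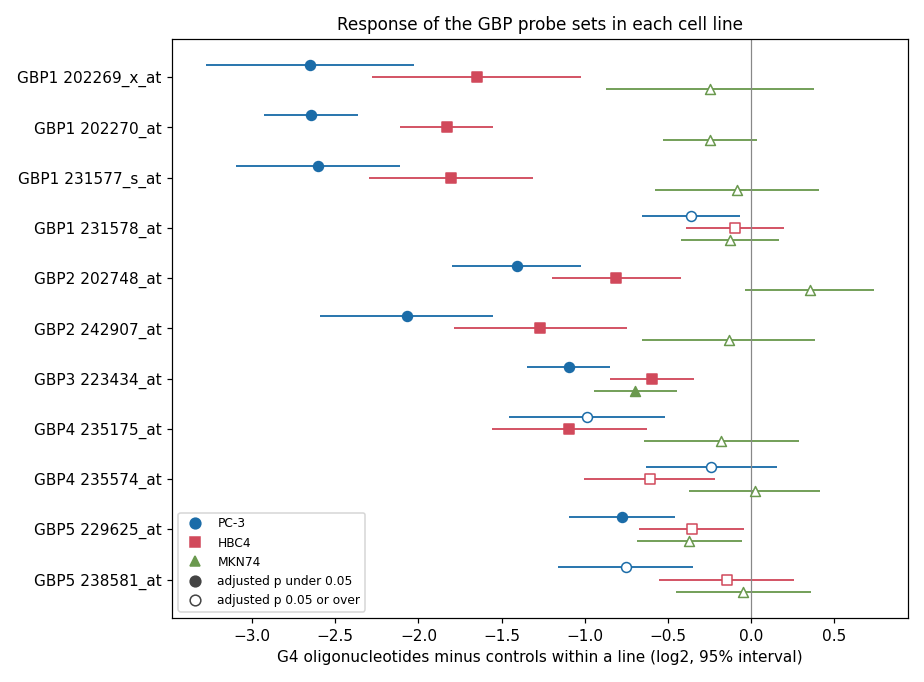
Difference between G4 oligonucleotides and controls within each line (x axis: log2, mean of 2 G4 arrays minus mean of 2 control arrays, with 95% intervals of the limma fit; y axis: probe set). Filled symbols passed adjusted p under 0.05: 7 in PC-3, 7 in HBC4 and GBP3 in MKN74.

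Whether the response itself differed between the lines was tested on the interaction of line and class. By the F test over the 3 lines, 3 of the 11 probe sets passed, where 0.487% of all did: GBP1 202270_at (adjusted p = 7.96e-04), GBP1 231577_s_at (adjusted p = 0.0159) and GBP2 202748_at (adjusted p = 0.0285). Set against PC-3, the difference was less negative in MKN74 by 2.40, 2.40 and 2.52 for GBP1 202269_x_at, 202270_at and 231577_s_at, and by 1.76 and 1.93 for GBP2 202748_at and 242907_at. These 5 probe sets passed, against 0.372% of all in either direction and 0.19% in this one. Set against HBC4, 1 passed, GBP1 202270_at, with 1.58 (SE 0.18, adjusted p = 0.0069), against 0.233% of all in either direction and 0.141% in this one. Between HBC4 and PC-3, 0 of 11 passed with limma, against 0.137% of all. At an unadjusted p under 0.05, 7 of 11 did, against 10.4% of all probe sets. GBP1 202270_at differed by 0.82 (95% interval 0.42 to 1.21, adjusted p = 0.142). For GBP3 the F test gave an adjusted p of 0.326, and the difference between MKN74 and PC-3 had an interval of 0.05 to 0.75. The F test left 1 probe set, GBP1 202270_at, without the PC-3 array of the reagent or without the MKN74 array of (uuaccc)4. The GBP2 202748_at call was lost in 7 of the 12 fits without 1 array, those without any 1 of the 4 MKN74 arrays or the PC-3 array of AS1411, (uuaggg)4 or the reagent (adjusted p up to 0.103), and after quantile normalization.

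The lines in which the response was small or large also differed in level on the control arrays. Those cells were lipofected with (uuaccc)4 or the reagent alone and harvested after 72 h, and no array held untreated cells. On control arrays, MKN74 lay below PC-3 for 9 of 11 probe sets, where 44.8% of all probe sets passed this test and 20.3% were lower. GBP1 202270_at averaged -3.45 in MKN74 against 2.17 in PC-3, a difference of -5.62 (SE 0.13), and the other 2 responding GBP1 probe sets differed by -5.36 and -5.76. GBP2 differed by -4.25 and -3.59, GBP3 by -1.17, GBP4 235175_at by -1.30 and GBP5 by -0.67 and -0.60. MKN74 thus had less of all 5 genes than PC-3, and the gap was widest for GBP1 and GBP2, whose response also differed most. The gap in level and the difference in response are computed from the same control arrays. They are therefore linked, and no relation between them was tested. Against HBC4, MKN74 was lower for 8 of 11 probe sets (37.1% of all passed, 16.8% lower): GBP1 by -5.48, -5.72 and -6.00, GBP2 by -4.43 and -3.07, GBP3 by -1.51, and GBP4 by -1.59 and -0.93. HBC4 and PC-3 lay nearer to each other. There 4 of 11 passed, where 40.3% of all did, 20.2% higher and 20% lower: GBP3 (0.34) and GBP4 235574_at (0.56) were higher in HBC4, and GBP5 lower, at -0.44 and -0.57. These 4 calls are near the share of all probe sets and are no trait of the family. Of these calls 0 were left without the (uuaccc)4 array of either line, and 2 without the HBC4 array of the reagent. For GBP1 the intervals of HBC4 minus PC-3 ran from -0.51 to 0.75, -0.19 to 0.37 and -0.25 to 0.73. A level near background cannot be recognised in centred values, so the part of the low MKN74 level in its small response was not tested.

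**Figure D3:**
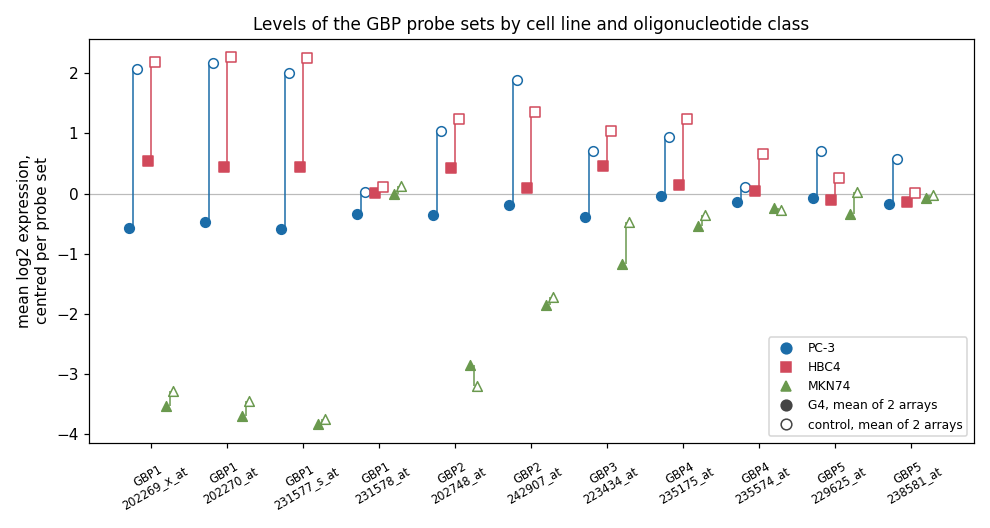
Mean level of each probe set by line and class (y axis: mean log2 expression of 2 arrays, centred to a median of 0 per probe set; filled: AS1411 and (uuaggg)4, open: (uuaccc)4 and reagent). In MKN74 the GBP1 control means lie between -3.75 and -3.28 for 3 probe sets, against 2.01 to 2.17 in PC-3 and 2.19 to 2.26 in HBC4.

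Across the 3 lines, with line as a block, 6 of the 11 probe sets passed for G4 oligonucleotides against controls, all lower, where 1.57% of all probe sets passed and 1.1% were lower. All 11 differences were negative, with a median of -0.75 beside 0.02 over all probe sets. GBP3 differed by -0.80 (SE 0.09, SD over the 3 lines 0.27, adjusted p = 0.00157), and GBP1 202270_at by -1.58 (SE 0.30, SD 1.22, adjusted p = 0.0263). The others that passed were GBP1 202269_x_at (-1.52) and 231577_s_at (-1.50), GBP4 235175_at (-0.75) and GBP5 229625_at (-0.50), with adjusted p between 0.0353 and 0.0481. GBP2 did not pass, at -0.62 (adjusted p = 0.221) and -1.16 (adjusted p = 0.0531). The GBP1 average covers lines that differed, which its SD of 1.22 shows. The count fell to 1, GBP3, without PC-3 or without HBC4, to 1 or 2 without any 1 of the 8 arrays of these lines, and to 3 without the MKN74 array of (uuaggg)4.

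Each G4 oligonucleotide was also set against a single control, (uuaggg)4 against the RNA (uuaccc)4 and AS1411 against the reagent alone. AS1411 was the only DNA given. An effect of its G4 structure and one of delivering a DNA oligonucleotide therefore cannot be told apart. Between the RNAs, (uuaggg)4 against (uuaccc)4, 1 of 11 probe sets passed, where 0.165% of all did and 0.159% were lower: GBP3, by -0.81 (SE 0.13, SD 0.24, n = 3 lines, limma adjusted p = 0.0469). For AS1411 against the reagent 1 passed, where 0.35% of all did and 0.311% were lower: GBP3 again, by -0.79 (SE 0.13, SD 0.31, n = 3 lines, limma adjusted p = 0.0349). GBP1 202270_at differed by -1.49 (95% interval -2.42 to -0.56, adjusted p = 0.341) between the RNAs and by -1.66 (-2.59 to -0.73, adjusted p = 0.152) between AS1411 and the reagent. At an unadjusted p under 0.05, 8 of 11 passed between the RNAs, against 9.26% of all probe sets, and 7 of 11 for AS1411 against the reagent, against 11.8% of all. Both GBP3 calls were lost in at least 10 of the 12 fits without 1 array, and without any 1 line. Without MKN74, 3 probe sets other than GBP3 passed for the RNAs and 4 for AS1411 against the reagent.

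The G4 oligonucleotides, an RNA and a DNA of different sequence, were compared directly at the same dose and time. For (uuaggg)4 against AS1411, 0 of 11 passed with limma, and 0% of all 54613 probe sets did. At an unadjusted p under 0.05, 0 of 11 passed, against 4.82% of all. The median difference was 0.00. The interval for GBP3 was narrow, at 0.00 (95% interval -0.29 to 0.29), while that for GBP1 202270_at, 0.09 (-0.85 to 1.02), leaves room for a sizeable difference. For the control RNA (uuaccc)4 against the reagent, 0 of 11 passed as well, with 0% of all, and 0 at an unadjusted p under 0.05, against 3.12% of all. There GBP3 differed by 0.02 (-0.27 to 0.32) and GBP1 202270_at by -0.08 (-1.01 to 0.85).

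Genes of the same pathway were read from lists, each described by its counts beside the 1.1% of all probe sets that were lower across the 3 lines. Among the genes of interferon gamma signalling and its factors, 14 had a probe set naming them alone, with 42 probe sets in all. Of the 42, 3 were lower and 0 higher, with a median of -0.03. IRF9, the DNA-binding subunit of ISGF3, fell by 0.99 (adjusted p = 0.00612), and IRF1, the factor that interferon gamma induces to drive its secondary targets, fell by 0.48 and 0.52 in 2 probe sets (adjusted p = 0.00754 and 0.0175). The kinase JAK2 read -0.46 (adjusted p = 0.0527), -0.41 and -0.04 in its 3 probe sets, none past the threshold. JAK1 read -0.30 in its most changed probe set. Within PC-3 both IRF1 probe sets and IRF9 passed (-0.85, -0.56 and -1.19), within HBC4 IRF9 alone (-1.37), and within MKN74 none.

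Of 19 probe sets for 15 interferon gamma-linked targets outside the family, 7 were lower and 0 higher, each for a different gene, and the median was -0.68. TAP1, which carries peptides to MHC class I, fell by 1.35 (SE 0.13, adjusted p = 3.28e-04). The phospholipase PLAAT4 fell by 1.23, the immunoproteasome subunit PSMB9 by 1.47, the checkpoint ligand CD274 by 0.96 and the chemokine CXCL10 by 1.23. IDO1, which breaks down tryptophan, did not pass across lines (-0.78, adjusted p = 0.262), nor did a second CXCL11 probe set (-0.73) or APOL3 (-0.70). By line, 11 of 19 were lower in PC-3 and 11 in HBC4, against 1, TAP1, in MKN74 (-1.26). The response of IDO1, TAP1 and PSMB9 differed between lines by the F test (adjusted p = 0.0302, 0.038 and 0.0416). IDO1 read -1.76 in PC-3 and -1.23 in HBC4, both past the threshold, and 0.64 in MKN74, which was not (adjusted p = 0.334).

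**Figure D4:**
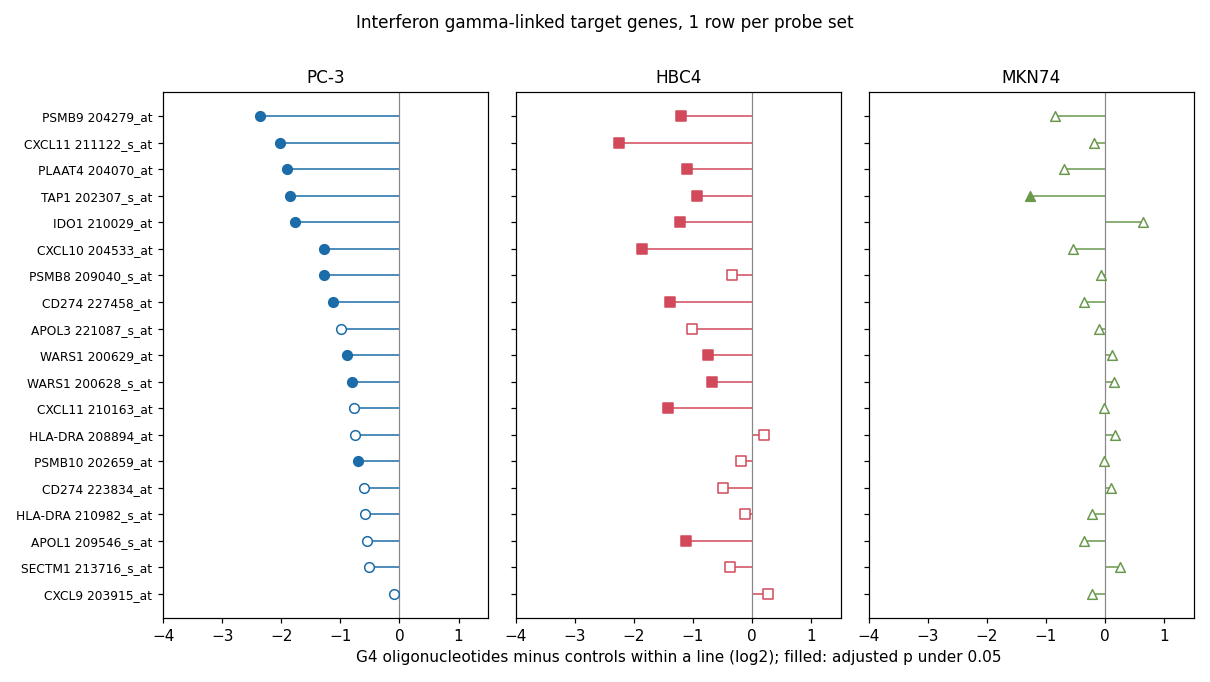
Difference between G4 oligonucleotides and controls for the 19 probe sets of the interferon gamma-linked targets, 1 panel per line (x axis: log2, mean of 2 G4 arrays minus mean of 2 control arrays; y axis: probe set; filled: adjusted p under 0.05). Filled symbols number 11 in PC-3, 11 in HBC4 and 1, TAP1, in MKN74.

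Among the other GBP genes and related large GTPases, 9 of 11 genes were measured by 27 probe sets, of which 5 were lower and 0 higher. MX2 and MX1, antiviral GTPases that interferons of type I and III induce, fell by 2.32 (adjusted p = 0.0055) and 1.81 (adjusted p = 0.0433), and RNF213, a large ubiquitin ligase with an ATPase core, fell by 0.76, 0.64 and 0.77 in 3 probe sets. The response of MX2 and MX1 also differed between lines by the F test (adjusted p = 0.0181 and 0.00898). Within HBC4 MX2 fell by 3.54 and MX1 fell by 3.31, within PC-3 MX2 fell by 2.49 and MX1 fell by 1.91, and MKN74 gave -0.94 and -0.22, neither past the threshold. GBP6, the family member at the far end of the locus, read -0.03 and 0.00, neither past the threshold. The inflammasome list held 1 lower probe set of 19, for CASP1 (-0.92, adjusted p = 0.0171), whose other probe sets read -0.53 to -0.72 without passing. Within HBC4 4 CASP1 probe sets fell, by 1.13 to 1.51, and within PC-3 CASP1 (-0.99) and the DNA sensor AIM2 (-1.19) fell. Within MKN74 0 were lower and 1 rose, the inflammasome adaptor PYCARD (0.54, adjusted p = 0.0439), whose response differed between lines (F test, adjusted p = 0.0465). Of the enzymes that prenylate and trim CaaX proteins, the modification GBP1, GBP2 and GBP5 carry, 0 of 14 probe sets passed across lines. The lowest adjusted p with limma there was 0.35. Within HBC4 1 of the 14 passed, higher, and within PC-3 and MKN74 0 did. Of 7 genes named as GBP partners (12 probe sets) 0 passed with limma. FURIN, which GBP2 and GBP5 restrain, read 0.23 (adjusted p = 0.117).

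Likeness to each GBP gene was measured over all 12 arrays, with the gene as the mean of its probe sets, as Pearson's r with no test, since the 12 points share 3 lines and 4 treatments. Every other gene entered by whichever of its probe sets had the highest r. That favours genes with many probe sets, and their other probe sets may differ. As deposited, GBP1 was followed most closely by TRIM38 (0.987), SAMD9L (0.983) and SLFN5 (0.982), GBP2 by SLFN5 (0.983), IDO1 (0.980) and SAMD9L (0.978), and GBP3 by TRIM5 (0.989), ZNF91 (0.982) and TAP1 (0.981). GBP4 was followed by TNFSF10 (0.956), CASP1 (0.948) and EPSTI1 (0.947), and GBP5 by BLZF1 (0.917), PIGG (0.903) and SAMHD1 (0.893). With the line means removed, the closest were LAP3 (0.988), RALGAPB (0.987) and OASL (0.987) for GBP1, OASL (0.976), PLAAT2 (0.972) and STARD4 (0.969) for GBP2, and TRMT1L (0.996), TAP1 (0.991) and IFITM2 (0.990) for GBP3. For GBP4 they were CXCL11 (0.960), SPOP (0.958) and CXCL10 (0.957), and for GBP5 EXT1 (0.961), RBM25 (0.955) and ARMC8 (0.946). Among the members themselves, the 55 pairs of probe sets had r between 0.277 and 0.986 with line means removed, with a median of 0.750. Probe sets 202269_x_at and 231577_s_at carry the suffixes that the manufacturer gives to probes shared with other transcripts, and GBP1 and GBP3 are close relatives, so their signals may not be fully separate.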

How the data were processed

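Values deposited by the authors are log2 expression, made with RMA (version not given) per the submitters' processing notes. The median of every probe set over the 12 arrays is 0 (within 5e-07), and how they were centred is not given in the sources used here. Base 2 was inferred, since values reach 11.2 above a median. Levels and detection cannot be recovered, so no filter on level was applied.

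Of 54675 probe sets, 62 array controls were left out and 54613 tested. Names come from the platform annotation: 41091 probe sets name 1 gene, 1801 several, and 11721 are unnamed here. Gene identifiers of 41037 matched RefSeq (GRCh38.p14), with 0 symbols changed.

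limma 3.58.1 (R 4.3.3, lmFit and eBayes, no trend) was fitted to all 12 arrays. One model held treatment and line as block, the other a class effect in each line. P-values were adjusted after Benjamini and Hochberg across the 54613 probe sets. The replicate number stands for the line, so same-numbered arrays are the same cell line (r of 0.856 or more within lines), and the block is part of the design. Scripts were tested on simulated data. Promoters were searched in Python 3.11.15.

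Members, gene lists and tests were chosen with earlier results of these data known. All member probe sets are described. Of each list, up to 5 members with the smallest p and up to 3 with the largest change that did not pass are named across lines, and those past the threshold within a line were chosen after their values were seen. For likeness the 3 closest genes are given. Alternatives were quantile normalization, values per gene, no block, fewer arrays, and leaving out each line or array.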

Additional observations from a re-analysis of the deposited data

Results flagged for a closer look

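The response to G4 oligonucleotides differed between the lines for GBP1 and GBP2 by tests of the difference itself. Over the 3 lines, the F test gave an adjusted p of 0.000796 for GBP1 202270_at, 0.01595 for GBP1 231577_s_at and 0.0285 for GBP2 202748_at, whose call was kept in 5 of the 12 fits without 1 array. In MKN74 the log2 difference was less negative than in PC-3 by 2.404 for GBP1 202269_x_at, 2.399 for GBP1 202270_at, 2.522 for GBP1 231577_s_at, 1.759 for GBP2 202748_at and 1.934 for GBP2 242907_at. In MKN74 it was less negative than in HBC4 by 1.583 for GBP1 202270_at. On control arrays the same probe sets differed by -6.00 to -3.07 log2 units in MKN74 against PC-3 or HBC4, and the part of that level in these differences was not tested. The differences in level and in response share those control arrays.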

How the results depend on the processing

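Each count is of 11 GBP probe sets past the threshold. Without the replicate block, 0 passed for G4 oligonucleotides against controls and 0 in each pairwise comparison, against 6, 1 and 1 with it. After quantile normalization 3 passed for G4 against controls, 0 for (uuaggg)4 against (uuaccc)4, 0 for AS1411 against the reagent and 0 within MKN74. With only the 6 arrays of the 2 treatments both pairwise counts were 0. Counted by gene, of 5 genes, with the probe set of largest SD of line means, 4 passed for G4 against controls, 4 within HBC4, 2 for HBC4 against PC-3, 5 for MKN74 against PC-3 and 4 for MKN74 against HBC4. With the mean of a gene's probe sets, 2 passed for G4 against controls, 4 within PC-3, 4 within HBC4, 5 for MKN74 against PC-3 and 4 for MKN74 against HBC4. The 6 probe sets that passed for G4 against controls belong to 4 genes; with the mean, GBP4 and GBP5 no longer passed (adjusted p = 0.0791 and 0.0797). Leaving out a line gave 1 to 7 for G4 against controls (1 without PC-3, 1 without HBC4, 7 without MKN74), 0 to 3 for (uuaggg)4 against (uuaccc)4 (3 without MKN74) and 0 to 4 for AS1411 against the reagent (4 without MKN74). Leaving out 1 array gave 1 to 7, 0 to 1 and 0 to 1 for these, 6 to 8 within PC-3, 2 to 6 within HBC4, 0 to 1 within MKN74, 1 to 3 for the difference between lines, 0 to 4 for HBC4 against PC-3, 8 to 9 for MKN74 against PC-3 and 8 for MKN74 against HBC4. The GBP3 call for G4 against controls was kept in 19 of 20 alternatives, all but the fit without block, and that of GBP1 202270_at in 9 of 20. Within PC-3 the calls of GBP1 (3 probe sets), GBP2 and GBP3 were kept in 16 of 16. None of the 52 results for single probe sets changed sign under these alternatives, but the 3 F statistics among them have no sign. The 52 were the results past the threshold and all 11 of G4 against controls. A change of sign was therefore unlikely from the start, and its absence says little of stability. The causes were not tested. A filter on level was not run, since centred values hold none, and signal over background is unknown.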
